A study of Mus musculus with 24 samples.

Results

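The gene Ifng encodes interferon gamma, the signature cytokine of T helper 1 (Th1) cells. It was followed through all 24 arrays of the series by taking every probe that carried its symbol. The arrays held 1 such probe of 55681, printed as 2 spots on each array, so its 2 spots were averaged and its values in the Cy3 channel, the Cy5 channel and their ratio are described.

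Interferon gamma is secreted by activated Th1 cells, CD8 T cells and natural killer cells, and it binds a receptor made of Ifngr1 and Ifngr2 chains that signals through the kinases Jak1 and Jak2. Its target genes arm macrophages and raise antigen presentation. In CD4 T cells the gene is opened by the transcription factor T-bet (Tbx21) together with Stat4, which relays interleukin 12, and it is transcribed at a high rate once the antigen receptor is engaged, whereas Gata3 and interleukin 4 direct the opposing T helper 2 (Th2) fate.

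The samples were in vitro differentiated Th1 cells (14 arrays) and Th2 cells (10 arrays) of female C57BL/6 mice, either unstimulated or reactivated. All had received the solvent DMSO, JQ1 at 50 or 500 nM, or Flavopiridol at 1 or 10 µM. JQ1 blocks the acetyl-lysine binding of BET bromodomain proteins, and Flavopiridol inhibits the elongation kinase P-TEFb. Most treatments ran for 6 hr. For Th1 cells a 24 hr time point was added for DMSO and for JQ1 at 500 nM. The Th2 DMSO arrays were labelled 24 hr in 1 field and 6 hr in another, so their time is unclear. The age of the mice was not given in the sources used here. Each array carried T helper cell RNA in Cy3 against a reference in Cy5, RNA of naive CD4+CD62L+CD25-CD44lo T cells from lymph nodes and spleens, and the dyes were not swapped. Every condition had 1 array, so no condition has a replicate error of its own. Tests therefore used matched conditions in place of replicates, and their p-values measure only the spread among these arrays.

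Across arrays, 35.4% to 52.0% of probes were well above background in Cy3 and 48.1% to 53.8% in Cy5. The arrays lay on 3 slides of 8. Each reactivated array shared a slide with its unstimulated partner, and the Th1 JQ1 arrays shared one with their DMSO controls, but the Flavopiridol arrays and the Th2 JQ1 arrays did not. On DMSO arrays all 5 Th1 markers were above background in Th1 cells and also in Th2 cells, with a median log2 ratio of 3.67 to 5.18 in Th1 cells and of −0.06 to 4.11 in Th2 cells. Of 6 Th2 markers, 5 were above background on both Th2 DMSO arrays, and 3 (Gata3, Ccr4 and Il1rl1) on all 4 Th1 DMSO arrays, with median log2 ratios over the 6 of 2.51 to 3.78 in Th2 cells and 0.17 to 2.70 in Th1 cells. Of markers for other cells that make interferon gamma, Cd8a and Cd8b1 (CD8 T cells) were above background on all 4 Th1 DMSO arrays, and on the 2 Th2 DMSO arrays Cd8b1 was on both and Cd8a on neither. Of 5 natural killer cell genes, Klra8 was above background on all 4 Th1 DMSO arrays, whereas Ncr1, Klrb1c and Klre1 were on none. The part of such cells in the Ifng signal was not tested, and in these bulk samples fewer expressing cells and less RNA per cell cannot be told apart.

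The sequence just upstream of the gene is shown because both drugs act on transcription. These are the 250 bases before the RefSeq start of Ifng, chr10:118440796-118441045 on the plus strand of GRCm38.p6, written 5′ to 3′, with matches to 3 searched motifs in capitals.
Ifng promoter: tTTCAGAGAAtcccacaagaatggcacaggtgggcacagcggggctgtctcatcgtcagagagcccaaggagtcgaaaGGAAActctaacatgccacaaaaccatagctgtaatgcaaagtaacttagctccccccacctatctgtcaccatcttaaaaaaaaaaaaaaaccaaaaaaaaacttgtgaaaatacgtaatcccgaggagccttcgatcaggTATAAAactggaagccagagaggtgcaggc
The capitals mark, from left to right, a gamma-activated site of the form TTCNNNGAA, bound by STAT dimers, 249 to 241 bases before the start, the core GGAAA of NFAT sites, 172 to 168 bases before it, and a TATA box, TATAAA, 30 to 25 bases before it. Both strands were searched, and the matches do not overlap. The same letters occur in 7.02%, 55.6% and 12.4% of 32851 promoter windows, respectively. The AP-1 motif TGANTCA (in 6.75% of windows) and the T-box motif GGTGTGA (in 3.33%) had no match in this window. A match describes letters only.

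The level of Ifng ranged from background to among the brightest signals of the arrays. Signals are given as the spot median less its local background in scanner units, averaged over both spots. In Th1 cells with DMSO at 6 hr the Cy3 signal was 16728 unstimulated and 423687 reactivated, and at 24 hr it was 11966 and 417342. In Th2 cells with DMSO it was 32.0 unstimulated and 4264 reactivated. With DMSO, reactivated Th2 cells thus stayed below unstimulated Th1 cells.

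With JQ1 the Th1 signal was 12038 unstimulated and 408261 reactivated at 50 nM, and 3324 and 152546 at 500 nM after 6 hr. After 24 hr with 500 nM JQ1 it was 1874 unstimulated and 272532 reactivated. The reactivated Th1 arrays stayed bright under JQ1, and the unstimulated 500 nM arrays were the dimmest of Th1 cells. In Th2 cells with JQ1 Ifng was not well above background unstimulated, and reactivated it was 2339.5 at 50 nM and 917.5 at 500 nM.

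With Flavopiridol the Th1 signal was 24529.5 unstimulated and 42731 reactivated at 1 µM, and 29576.5 and 29363 at 10 µM. These 4 values lay above every other unstimulated array and below every other reactivated Th1 array. In Th2 cells with Flavopiridol Ifng was not well above background on any of the 4 arrays, with signals of −3.25 to 1.50.

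**Figure D1:**
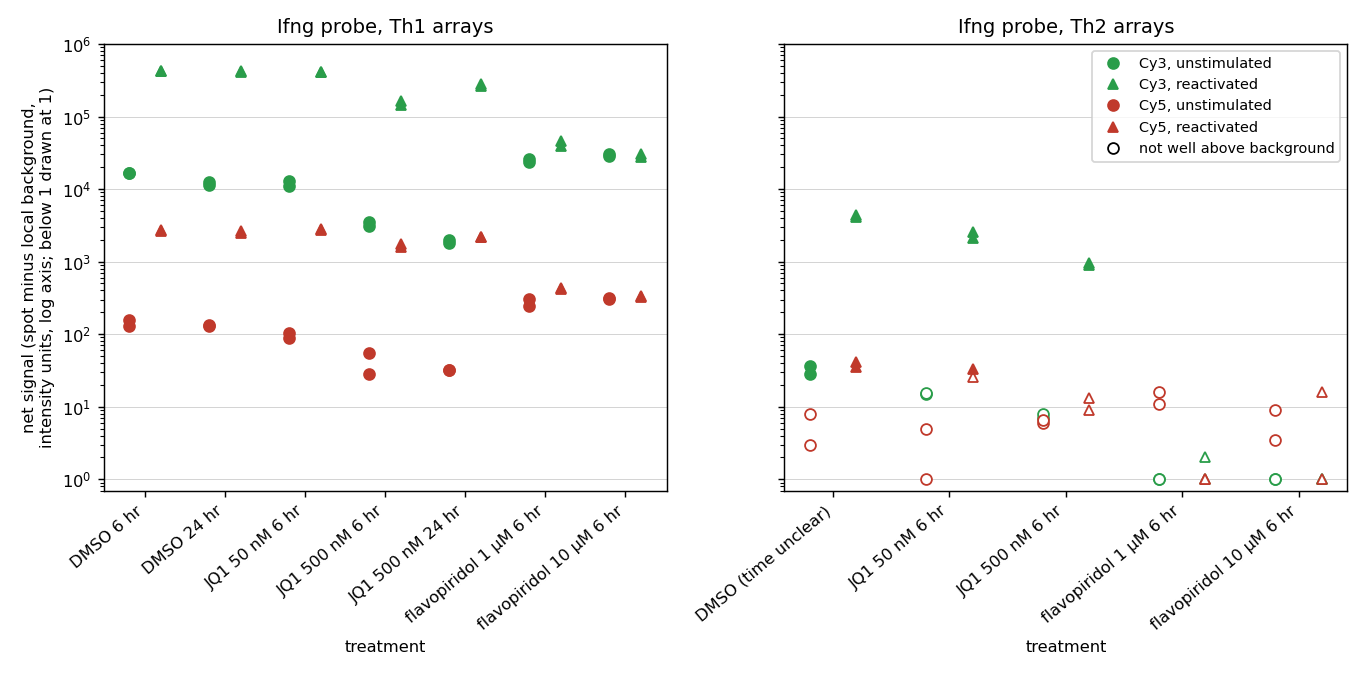
Background-subtracted Ifng signal (scanner units, log axis) of both spots on each of the 24 arrays, in Cy3 (T helper sample) and Cy5 (naive reference). Filled points were well above background and open points were not, with values below 1 drawn at 1. Averaged over both spots, reactivated Th1 arrays with DMSO or JQ1 lie between 152546 and 423687 in Cy3, above all other arrays.

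The Cy3 signal was well above background in both spots on 18 arrays and in neither on 6. No Ifng spot was saturated or carried an outlier flag. Repeat spots differed by at most 0.23 in log2 Cy3, and the SD between spots was 0.09 in the log2 ratio. As a measure of precision between arrays, the naive reference was used, since its RNA was the same kind of sample throughout. Its normalized Cy5 level varied with an SD of 0.19 on the log2 scale over 276 pairs of arrays and 25039 probes, and 2 SD (0.37) served as the tolerance.

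By normalized Cy3 level the arrays ranked from Th1 DMSO reactivated at 6 hr (19.38) through 50 nM JQ1 reactivated (19.30) and DMSO reactivated at 24 hr (19.14) to 500 nM JQ1 reactivated at 24 hr (18.94) and 6 hr (18.50). The next level lay 2.30 lower and held the Flavopiridol arrays, at 16.20 (1 µM reactivated), 16.11 (10 µM unstimulated), 15.93 (10 µM reactivated) and 15.45 (1 µM unstimulated). Unstimulated Th1 cells followed after a step of 1.37, at 14.08 and 13.96 with DMSO (6 and 24 hr) and 13.59 with 50 nM JQ1. Below a step of 1.44 came Th2 DMSO reactivated (12.15), unstimulated Th1 with 500 nM JQ1 at 6 hr (12.11), Th2 50 nM JQ1 reactivated (11.47), unstimulated Th1 with 500 nM JQ1 at 24 hr (11.36) and Th2 500 nM JQ1 reactivated (10.37). The lowest array with a measured level was Th2 DMSO unstimulated (6.62), 3.75 lower. Of the 17 steps between neighbours, 9 were below the tolerance, so the order of those neighbours is not resolved.

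The Cy5 channel held the same naive reference on every array, but for Ifng it did not stay constant. It was well above background in both spots on 15 arrays, all 14 Th1 arrays and the reactivated Th2 DMSO array, in 1 spot on the reactivated Th2 array with 50 nM JQ1, and in neither on 8 arrays, where its signal was 0.50 to 13.5. In Th1 cells with DMSO the Cy5 signal was 142 unstimulated and 2678 reactivated at 6 hr, and 133 and 2546 at 24 hr. With JQ1 the Th1 Cy5 signal was 96.8 and 2786 at 50 nM, 41.2 and 1676 at 500 nM after 6 hr, and 32.2 and 2192 after 24 hr. With Flavopiridol it was 278 and 426 at 1 µM and 309 and 332 at 10 µM. On the Th2 DMSO arrays it was 5.50 and 38.2.

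Thus Cy5 was high where Cy3 was high. On the 15 arrays with both channels above background the Cy5 signal was 0.61% to 1.72% of Cy3 (median 0.998%), while Cy3 spanned 226-fold and Cy5 86.4-fold. Such low shares were rare among bright probes: on the 12 arrays with an Ifng Cy3 signal of at least 10000, 1202 to 1954 probes were that bright, their median Cy5 share was 134% to 370%, and only 1 to 7 of them, Ifng included, had a share at or below that of Ifng. Over the 24 arrays the normalized Cy5 level of Ifng ranged over 5.30 on the log2 scale, against a median of 0.38 for 12659 genes, and 5 genes had a larger range. Its Pearson r between Cy3 and Cy5 was 0.86 over the 24 arrays, which share 1 reference and fall into separate levels, against a median of 0.01 for all genes, and 377 genes had a higher r. Of 13 genes within 1 log2 unit of the Ifng peak in Cy3, Ifng included, 3 had a Cy5 range of at least 2, with Ifng among them. The source of the Cy5 signal was not tested.

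**Figure D2:**
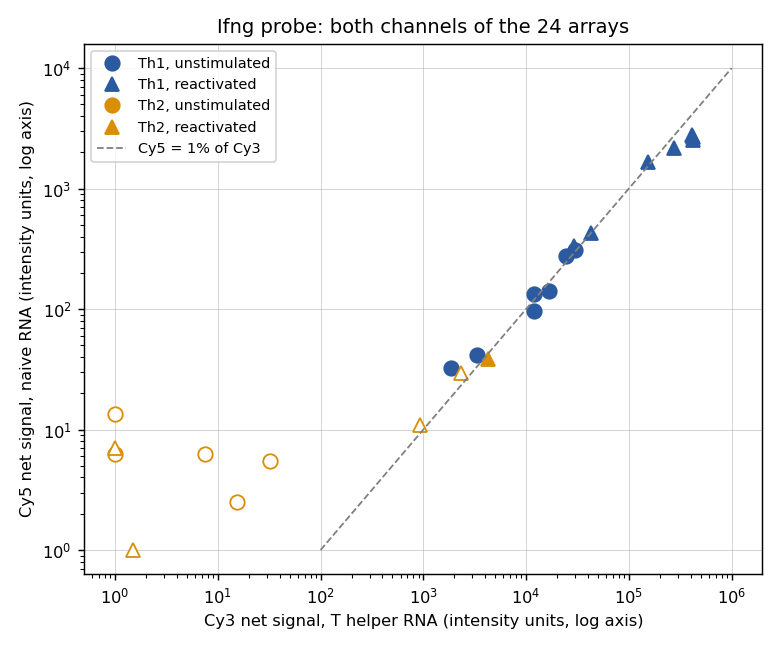
Cy5 against Cy3 signal of Ifng (scanner units, both axes log) on each array. The dashed line marks a Cy5 signal of 1% of Cy3, near which all filled points lie (0.61% to 1.72%), and open points had at least 1 channel not well above background in both spots, with signals below 1 drawn at 1.

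The ratio is therefore given beside Cy3 for each comparison, since a Cy5 level that moves with Cy3 narrows the ratio. Log2 ratios of Cy3 over Cy5 were 8.59 and 8.34 on the reactivated Th1 DMSO arrays at 6 and 24 hr, and 7.15 and 7.08 on the unstimulated ones. On Th2 DMSO arrays they were 0.65 unstimulated and 6.20 reactivated. With 500 nM JQ1 the Th1 ratios were 6.04 unstimulated and 8.40 reactivated at 6 hr, and 5.48 and 8.43 at 24 hr. In ratio, reactivated Th1 arrays with DMSO or JQ1 all lay within 8.34 to 8.59, although their Cy3 levels differed by up to 0.88.

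Ifng was far higher in Th1 than in Th2 cells. Between Th1 cells at 6 hr and Th2 cells in 10 matched conditions, the Cy3 level was higher in Th1 by 8.39 ± 0.40 (SE, log2, 20 arrays; limma, adjusted p = 5.27e-08), the largest such difference of 13108 genes tested. In the ratio the difference was 5.98 ± 0.61 (adjusted p = 2.16e-05). Among all genes 18.2% were higher in Th1 in Cy3, and in the ratio 17.2% were higher and 18.5% lower. Within 1 slide, where only DMSO could be compared, Th1 exceeded Th2 in Cy3 by 7.46 unstimulated and 7.23 reactivated. Markers of other cells moved with this contrast on the DMSO arrays. The median log2 ratios of the 2 CD8 T cell genes were −0.26 to 0.52 in Th1 and −0.99 to −0.64 in Th2 cells, and those of 3 B cell genes, at least 2 of them above background on all arrays of either type, were 1.43 to 1.85 and 2.23 to 3.41. Those of 5 natural killer cell genes, none above background on a Th2 DMSO array, were 0.13 to 0.33 and −0.13 to −0.02. Their part in the Ifng difference was not tested. Ifng was not well above background on 6 of the 10 Th2 arrays, so the fitted mean rests partly on values at the floor. For Flavopiridol alone, Th1 was at least 686-fold to at least 1072-fold higher than Th2 in Cy3. In 9 of the 10 matched pairs no other gene differed as far in that direction in Cy3.

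Whether reactivation alters the lineage difference depended on the scale. With DMSO, where Ifng was measured in both cell types, Th1 minus Th2 was 6.50 unstimulated and 2.39 reactivated in the ratio, and 7.46 and 7.23 in normalized Cy3. In Cy3 scaled to the spike-ins it was 8.91 and 6.51, and the raw Cy3 signals differed 523-fold and 99.4-fold. With JQ1 the unstimulated Th2 arrays were not above background, so Th1 was at least 167-fold (50 nM) and at least 61.3-fold (500 nM) higher in Cy3 there, beside differences of 7.83 and 8.13 on the log2 scale in reactivated cells. The fitted change, which takes in these arrays and the Th2 Flavopiridol arrays below background, was −2.10 ± 1.12 in the ratio (adjusted p = 0.597, 95% interval −4.55 to 0.36) and 0.58 ± 0.83 in Cy3 (adjusted p = 0.908, interval −1.23 to 2.40). Neither passed, and limma called 0% of genes here, with 1293 of 13108 at an unadjusted p below 0.05 in the ratio.

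Reactivation raised Ifng. Over the 3 DMSO pairs the Cy3 level rose by 5.34 ± 0.12 (SE, log2, 6 arrays; limma, adjusted p = 0.00021) and the ratio by 2.75 ± 0.80 (adjusted p = 0.0288), where 22.2% and 22.1% of all genes were higher, and 28.9% were lower in the ratio. By pair, the Cy3 level was higher by 5.30 in Th1 at 6 hr, 5.18 in Th1 at 24 hr and 5.54 in Th2, which put Ifng among the 17 to 30 genes with the largest increase of 12760 to 13165 genes in each pair. The 3 pairs lay close in normalized Cy3 only. In the ratio they stood at 1.44, 1.25 and 5.55, and in Cy3 scaled to the spike-ins, without the offset, at 5.09, 4.86 and 7.48, so the Th2 pair stood apart on both. On the Cy5 scale the same pairs stood at 3.86, 3.93 and −0.02. Without either Th2 DMSO array the ratio rose by 1.35 (adjusted p = 0.000868 and 0.000903). The call in the ratio was lost with software processed signals (1.99, adjusted p = 0.0996), with no filter (adjusted p = 0.0725) and with no block (adjusted p = 0.247). The raw signals rose 25.3-fold, 34.9-fold and 133-fold.

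With JQ1 the increase was also measured. Reactivated exceeded unstimulated Th1 cells in Cy3 by 5.71 with 50 nM JQ1, and with 500 nM JQ1 by 6.39 at 6 hr and 7.58 at 24 hr. In Cy3 scaled to the spike-ins these stood at 4.95, 4.74 and 7.81, beside 5.09 at 6 hr and 4.86 at 24 hr with DMSO. At 6 hr the order by treatment thus depended on the scale. In Th2 cells the Cy3 level was at least 38.4-fold higher after reactivation with 50 nM and at least 18.3-fold higher with 500 nM JQ1. These bounds set the reactivated level against the higher of the lowest signal that counted as above background on the unstimulated array and the Ifng signal of that array. In each JQ1 pair 5 to 51 genes, Ifng included, were as far up.

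With Flavopiridol the difference between states was smaller. Reactivated Th1 cells stood 0.75 above unstimulated ones in Cy3 at 1 µM, where 1.84% of genes were at least 2-fold higher, and −0.18 at 10 µM, within the tolerance. The raw signals changed 1.74-fold and 0.993-fold. In Th2 cells neither state was above background, so no fold can be given.

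**Figure D3:**
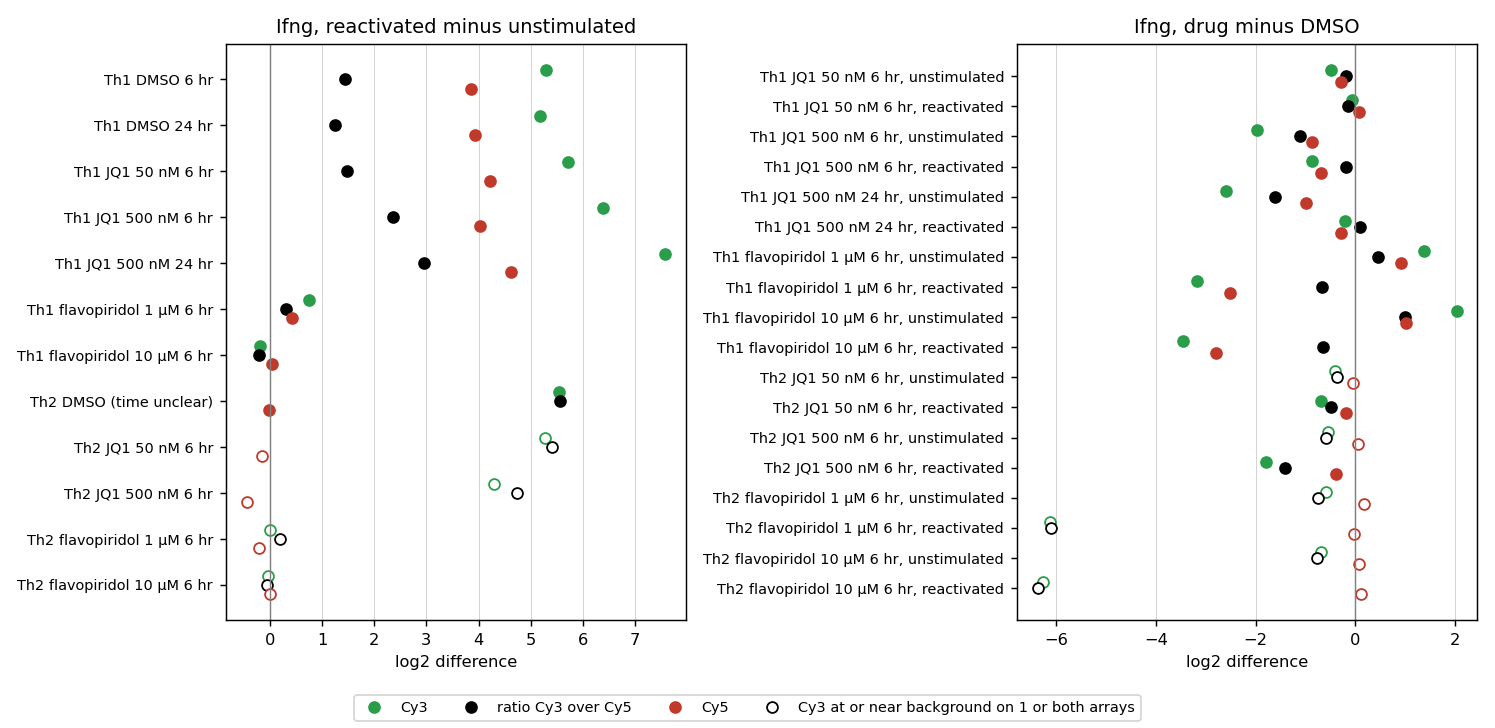
Log2 differences of Ifng between single arrays in Cy3, Cy5 and the ratio, for 12 reactivation pairs (left) and 18 drug minus DMSO pairs (right). Open points had Cy3 not well above background on 1 or both arrays and show measured differences, not bounds. Reactivation pairs with DMSO or JQ1 lie above 4 in Cy3, and the Th1 Flavopiridol pairs stand at 0.75 and −0.18.

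With Flavopiridol, Ifng differed from DMSO in opposite directions in unstimulated and reactivated Th1 cells. In reactivated Th1 cells the Cy3 level was lower than with DMSO by 3.18 at 1 µM and 3.45 at 10 µM, and the raw signal was 0.101 and 0.0693 times that of DMSO. The ratio was lower by only 0.67 and 0.65, while Cy5 was lower by 2.50 and 2.80. In unstimulated Th1 cells the Cy3 level was higher than with DMSO by 1.37 and 2.03, the ratio by 0.45 and 1.00, and the raw signal was 1.47 and 1.77 times that of DMSO. In reactivated Th2 cells the Cy3 level was at least 64.7-fold lower at 1 µM and at least 62.2-fold lower at 10 µM.

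The direction in unstimulated cells rested on the scaling. At 1 µM the difference in the ratio was 0.45 with loess, −0.04 with median centring and −0.48 with centring on the spike-in controls. In Cy3 scaled to the spike-ins the 1 µM difference was 0.36. The 10 µM difference in the ratio was 1.00 with loess, 0.16 with median centring and −0.17 when arrays were centred on the spike-in controls, and it was 0.68 in Cy3 scaled to the spike-ins. On that last scale the median of all genes was −1.83 in this pair and −1.59 in the reactivated pair, in which Ifng stood at −4.18.

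Averaged over both cell types and states, Flavopiridol did not pass the test for Ifng. At 10 µM the mean difference was −1.70 ± 1.05 in the ratio (limma, 12 arrays, adjusted p = 0.212, 95% interval −4.09 to 0.70) and −2.09 ± 1.18 in Cy3 (adjusted p = 0.17), and at 1 µM it was −1.77 ± 1.05 (adjusted p = 0.187) and −2.13 ± 1.18 (adjusted p = 0.157). Of all genes, 33.5% were lower and 15.5% higher at 10 µM in the ratio, and 35.5% lower and 16.3% higher at 1 µM, and in Cy3 31.7% and 33.9% were lower. With spike-in centring the 10 µM difference was −2.24 (adjusted p = 0.0409) and with Cy3 scaled to the spike-ins it was −5.42 (adjusted p = 0.0143), beside medians of all genes of −1.64 and −2.39. Without the Th2 arrays the ratio difference at 10 µM turned to 0.18 (adjusted p = 0.769), and without the unstimulated Th1 DMSO array Cy3 was lower by 3.36 (adjusted p = 0.0208). Ifng was not above background on the Th2 Flavopiridol arrays, and slide and drug cannot be told apart.

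The effect of Flavopiridol differed between states in Cy3 and did not pass the test in the ratio. The Cy3 value rests in part on values at the floor, since Ifng was not well above background on any Th2 Flavopiridol array. The difference of the 10 µM effect between reactivated and unstimulated cells was −5.52 ± 1.18 in Cy3 (limma, adjusted p = 0.0254), where 6.92% of 12420 genes were called lower, and 15 genes stood further down than Ifng. In the ratio it was −3.63 ± 1.76 (adjusted p = 0.215, 95% interval −7.76 to 0.51), where 6.93% were lower. Leaving out 1 array at a time, the Cy3 value ranged from −6.97 to −4.08 and was called in 5 of 12 cases, and the ratio ranged from −6.42 to −0.84 and was called only without the reactivated Th1 DMSO array. Between cell types the effect differed by 3.75 ± 1.88 in the ratio (adjusted p = 0.479, interval −0.84 to 8.33) and 2.77 ± 2.52 in Cy3 (adjusted p = 0.739), where 0.0161% and 0.0242% of genes were called.

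Ifng was lower with 500 nM JQ1 than with DMSO. Over 4 contexts the ratio fell by 0.82 ± 0.17 (SE, limma, 12 arrays, adjusted p = 0.00251) and Cy3 fell by 1.30 ± 0.22 (adjusted p = 0.000819), where 29.7% and 29.9% of 12905 genes were lower, and 17.8% were higher in the ratio. In unstimulated Th2 cells, 1 of the 4 contexts, Ifng was not well above background with JQ1, so the fitted mean rests partly on values at the floor. In the Th2 contexts the JQ1 and DMSO arrays lay on different slides, and the DMSO time is unclear. Slide and drug cannot be told apart there. Each of the 12 fits that left out 1 array still passed, from −1.01 to −0.66 in the ratio and from −1.54 to −1.08 in Cy3. Without the Th2 arrays the ratio difference was −0.65 (adjusted p = 0.0938), with the scanner software's own processed signals it was −0.39 (adjusted p = 0.353), and with no block for the matched conditions it was −0.82 (adjusted p = 0.895). On the spike-in scales Ifng and the median of all genes both stood lower. Ifng was at −1.30 with spike-in centring, −1.36 with loess and a spike-in shift and −2.25 in Cy3 scaled to spike-ins, beside medians of −0.54, −0.60 and −0.69, against a median of −0.07 with loess.

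By array and with loess, JQ1 at 500 nM gave its larger Th1 differences in unstimulated cells. The Cy3 level was lower than with DMSO by 1.97 at 6 hr and 2.60 at 24 hr, and the raw signal was 0.199 and 0.157 times that of DMSO, both within a slide. In reactivated Th1 cells Cy3 was lower by 0.88 at 6 hr and by 0.20, within the tolerance, at 24 hr, and the ratios differed by −0.19 and 0.10. At 6 hr this order turned on the spike-in scales. In Cy3 scaled to spike-ins Ifng stood at −1.88 unstimulated and −2.22 reactivated, beside medians of all genes of 0.10 and −1.63, and with spike-in centring of the ratio it stood at −1.03 and −1.53. Between slides, Cy3 was lower by 1.79 in reactivated Th2 cells.

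A difference of the JQ1 effect between states was not shown. It was 0.05 ± 0.35 in the ratio (adjusted p = 0.947, 95% interval −0.73 to 0.83) and −0.07 ± 0.45 in Cy3 (adjusted p = 0.938, interval −1.10 to 0.95), where 10.1% and 9% of genes were called. With spike-in centring the ratio value was −1.13 (adjusted p = 0.00669), beside a median of all genes of −0.997. The difference between cell types was 0.35 ± 0.36 in the ratio (adjusted p = 0.948, interval −0.49 to 1.19), where limma called 0% of genes on either scale, and 904 had an unadjusted p below 0.05 in the ratio.

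JQ1 at 50 nM did not pass the test. The mean difference was −0.30 ± 0.17 in the ratio (limma, adjusted p = 0.487, interval −0.68 to 0.07) and −0.41 ± 0.22 in Cy3 (adjusted p = 0.368), where 0.302% and 0.434% of genes were called. In Th1 cells Cy3 was lower by 0.49 unstimulated and 0.08 reactivated, and in reactivated Th2 cells, between slides, by 0.68. Between 50 and 500 nM, Cy3 within a slide was lower at the higher dose by 1.48 in unstimulated Th1, 0.80 in reactivated Th1 and 1.11 in reactivated Th2 cells, as single differences with no test.

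The drugs are unrelated in structure and their doses are not matched, so 10 µM Flavopiridol and 500 nM JQ1 are only set side by side. Their fitted difference was −0.87 ± 1.05 in the ratio (limma, 8 arrays, adjusted p = 0.519, interval −3.42 to 1.68) and −0.80 ± 1.32 in Cy3 (adjusted p = 0.641), where 49.5% and 49.2% of genes were called. In time, Th1 Cy3 levels with DMSO at 24 hr stood at −0.12 unstimulated and −0.24 reactivated relative to 6 hr, both within the tolerance. With 500 nM JQ1 they stood at −0.75 and 0.44, on different slides.

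**Figure D4:**
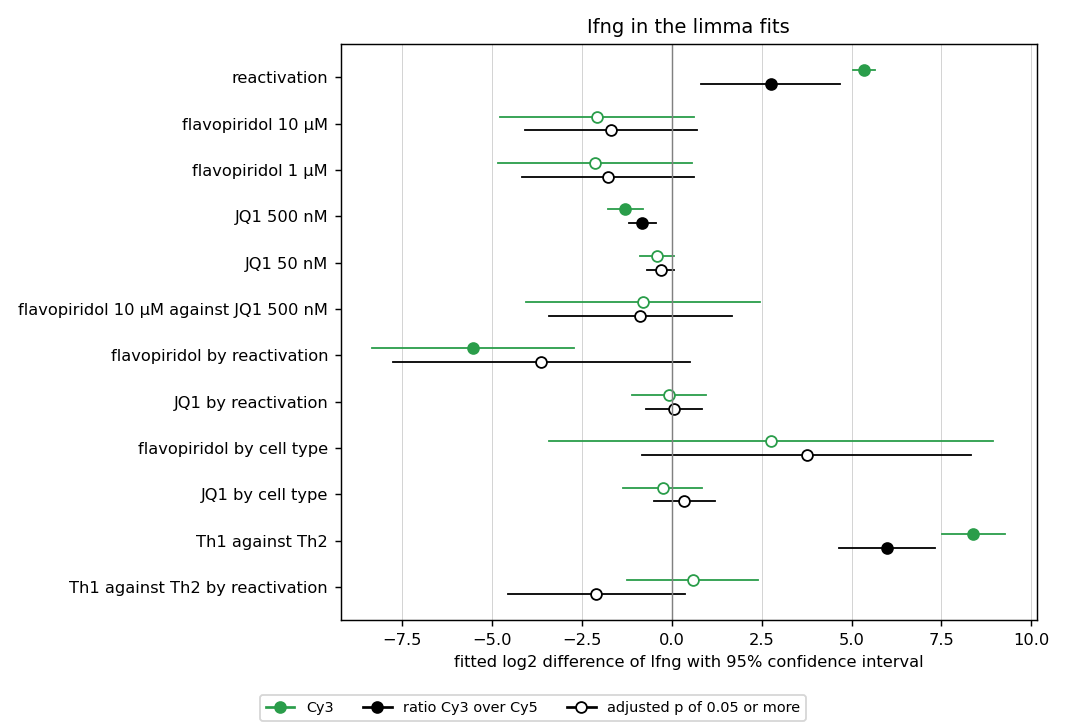
Ifng in 12 limma fits, as log2 difference in Cy3 and in the ratio with 95% confidence intervals. Filled points have an adjusted p below 0.05 and open points do not. Th1 against Th2, reactivation and 500 nM JQ1 pass on both scales, and the difference of the Flavopiridol effect between states passes in Cy3.

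The genes that act on Ifng or respond to it were read from 5 lists, all in the log2 ratio. Among 8 Th1 transcription and signalling genes, 7 were tested between Th1 and Th2 cells, and 5 were higher and 0 lower in Th1 (median 0.51, against −0.01 for all genes, of which 17.2% were higher and 18.5% lower). Tbx21, which encodes T-bet, was higher in Th1 by 3.14 (adjusted p = 0.000501). Runx3, its partner at Ifng, was higher by 0.79 and Eomes, a related T-box factor, by 0.56. On reactivation 2 of 8 rose and 2 fell, near the shares of all genes (22.1% and 28.9%, medians 0.037 and −0.05). Eomes rose by 2.88 and Twist1, which restrains Th1 cytokines, rose by 1.71. Stat4 fell by 1.25 and Runx3 fell by 1.34. Tbx21 differed by 2.05 with an adjusted p of 0.0597.

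The log2 ratio of Tbx21 on DMSO arrays was 5.41 and 6.11 in Th1 at 6 hr (unstimulated, reactivated), 5.55 and 6.35 at 24 hr, and −0.02 and 4.64 in Th2. In the ratio the reactivated Th2 array thus stood 4.64 for Tbx21 and 6.20 for Ifng, below every Th1 DMSO array, and in Cy3 its Ifng level (12.15) was far below those of reactivated Th1 cells (19.38 and 19.14). Under 500 nM JQ1 Tbx21 was 0.94 on the reactivated Th2 array, and Ifng was 4.79.

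Under 10 µM Flavopiridol 3 of 6 tested Th1 transcription genes were lower and none higher (median −2.06), where 33.5% of all genes were lower and 15.5% higher (median −0.22). Irf1, an interferon-induced activator, fell by 4.30, Id2 fell by 3.79 and Tbx21 fell by 3.11. Under 500 nM JQ1 3 of 8 were lower (median −0.46), where 29.7% of all genes were lower and 17.8% higher (median −0.07). Stat4 fell by 1.17, Eomes by 0.54 and Runx3 by 0.53, while Tbx21 stood at −1.07 with an adjusted p of 0.0938.

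Of 6 receptors that raise Ifng, 4 were higher and 1 lower in Th1 cells (median 0.94), where 17.2% and 18.5% of all genes were (median −0.01). Il18r1 and Il18rap, the chains of the interleukin 18 receptor, were higher by 4.14 and 2.60, and Il12rb2 and Il12rb1, those of the interleukin 12 receptor, by 0.98 and 0.90. On reactivation 1 of 6 rose and 3 fell, beside 22.1% and 28.9% of all genes. Il12rb1 rose by 1.97, while Cd226, Il18r1 and Il27ra, the interleukin 27 receptor, fell by 1.39, 1.28 and 0.47. Under 500 nM JQ1 4 of 6 fell, as did 29.7% of all genes, led by Il18rap (fell by 1.96) and Il18r1 (fell by 1.73), followed by Il12rb1 and Il27ra. On the Th1 arrays at 6 hr the ratio of Il18r1 was 1.96 unstimulated and 0.49 reactivated with DMSO, and −0.59 and −1.60 with 500 nM JQ1, so both JQ1 arrays lay below both DMSO arrays. Under 10 µM Flavopiridol 4 of the 6 were higher and 1 lower, where 15.5% and 33.5% of all genes were, with a list median of 1.15 that turned to −0.08 with median centring and −0.66 with spike-in centring. Of these, Cd226 (1.83) turned sign with spike-in centring, and Il27ra (1.47) with that and with Cy3 scaled to the spike-ins. Il18r1 (0.83) turned with those and with median centring. Il12rb2 stood at 1.52.

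Among 7 genes of the interferon gamma receptor, its signalling and its feedback, 1 rose and 3 fell on reactivation, where 22.1% of all genes rose and 28.9% fell, and the median of the list and of all genes was −0.05. Jak2 rose by 2.64, while the receptor chains Ifngr1 and Ifngr2 fell by 3.08 and 1.49 and Jak1 fell by 1.05. Between lineages 1 of 7 was higher in Th1, Ifngr1 (1.47), and 2 were lower, Ifngr2 (−1.81) and Jak2 (−0.73), beside 17.2% and 18.5% of all genes. Under 10 µM Flavopiridol 4 of 7 were lower (median −1.19), as were 33.5% of all genes (median −0.22), namely Jak2 (−2.88), the inhibitor Socs1 (−2.82), the phosphatase Ptpn2 (−1.93) and Jak1 (−1.04). Under 500 nM JQ1 Ifngr2 fell by 0.62, and Jak1 and Socs1 stood higher by 0.45 and 0.41, a direction that turned with spike-in scalings.

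Of 6 counter-acting Th2 genes, 4 were lower and 1 higher in Th1 than in Th2 cells (median −0.95), where 18.5% and 17.2% of all genes were. Il4 (−3.59), Gata3 (−2.51), Il5 (−1.12) and Il13 (−0.78) were lower, and Stat6 (0.24) higher. Reactivation raised Il4 by 3.92, Il13 by 3.81 and Gata3 by 0.53, while Il4ra fell by 0.59, and Il5 stood at 1.51 (adjusted p = 0.075). That is 3 of 6 higher and 1 lower, where 22.1% and 28.9% of all genes were. Under 500 nM JQ1 5 of 6 fell, among them Il13 by 1.23 and Il4 by 1.22 (median −0.61), where 29.7% of all genes fell (median −0.07). Under 10 µM Flavopiridol Gata3 fell by 2.75 and Stat6 by 0.94, and the other 4 did not pass, so the 2 of 6 lower lay at the share of all genes (33.5%). For the change of the Flavopiridol effect with state, in which Ifng was not called in the ratio, 9 genes of the 5 lists were called, where 6.93% of all genes were lower and 8.92% higher. Il4 (−3.74), Il13 (−3.62), Eomes (−3.49) and Jak2 (−2.60) were lower, and Ifngr1 (2.998), Il12rb2 (2.01), Cd226 (1.44), Il18r1 (1.30) and Jak1 (1.07) higher. Without any 1 of the 4 arrays with 10 µM only 2 or 3 list genes were called, with spike-in centring 3, and with Cy3 scaled to the spike-ins 0.

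Of 6 chromosomal neighbours 5 were tested, since Iltifb, a near-copy of Il22, was not above background on enough arrays. Il22, a cytokine gene next to Ifng, rose by 1.11 on reactivation (adjusted p = 0.0131), though probes of the 2 copies may share signal. Nup107, a nuclear pore gene, rose by 0.57, so 2 of the 5 rose and 0 fell, beside 22.1% and 28.9% of all genes. Of the 5, 1 was called between lineages, near the share of all genes (17.2% higher, 18.5% lower): Dyrk2, a kinase gene, was higher in Th1 by 0.49, a call lost with spike-in centring and with loess and a spike-in shift. Over the 5 lists 19 genes were called between lineages, beside those shares. With spike-in centring 10 were called and with no block 7, fits whose shares of all genes are not given here. Under 10 µM Flavopiridol Rap1b fell by 2.36 and Nup107 by 0.82, so 2 of the 5 fell and 0 rose, beside 33.5% and 15.5% of all genes. Under 500 nM JQ1 Nup107 fell by 0.34, and Mdm1 stood higher by 0.44, which turned with loess and a spike-in shift. That is 1 of the 5 lower and 1 higher, beside 29.7% and 17.8% of all genes. At 50 nM JQ1 0 genes of the 5 lists passed, where 0.302% of all genes did. When only the 8 arrays of that comparison were fitted 5 passed, and the share of all genes in that fit is not given here. Of the 8, 6, 7, 6 and 5 list genes tested at 500 nM, 17 were called, beside 29.7% of all genes lower and 17.8% higher. Without the Th2 arrays 6 were called and with no block 0, fits whose shares of all genes are not given here.

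**Figure D5:**
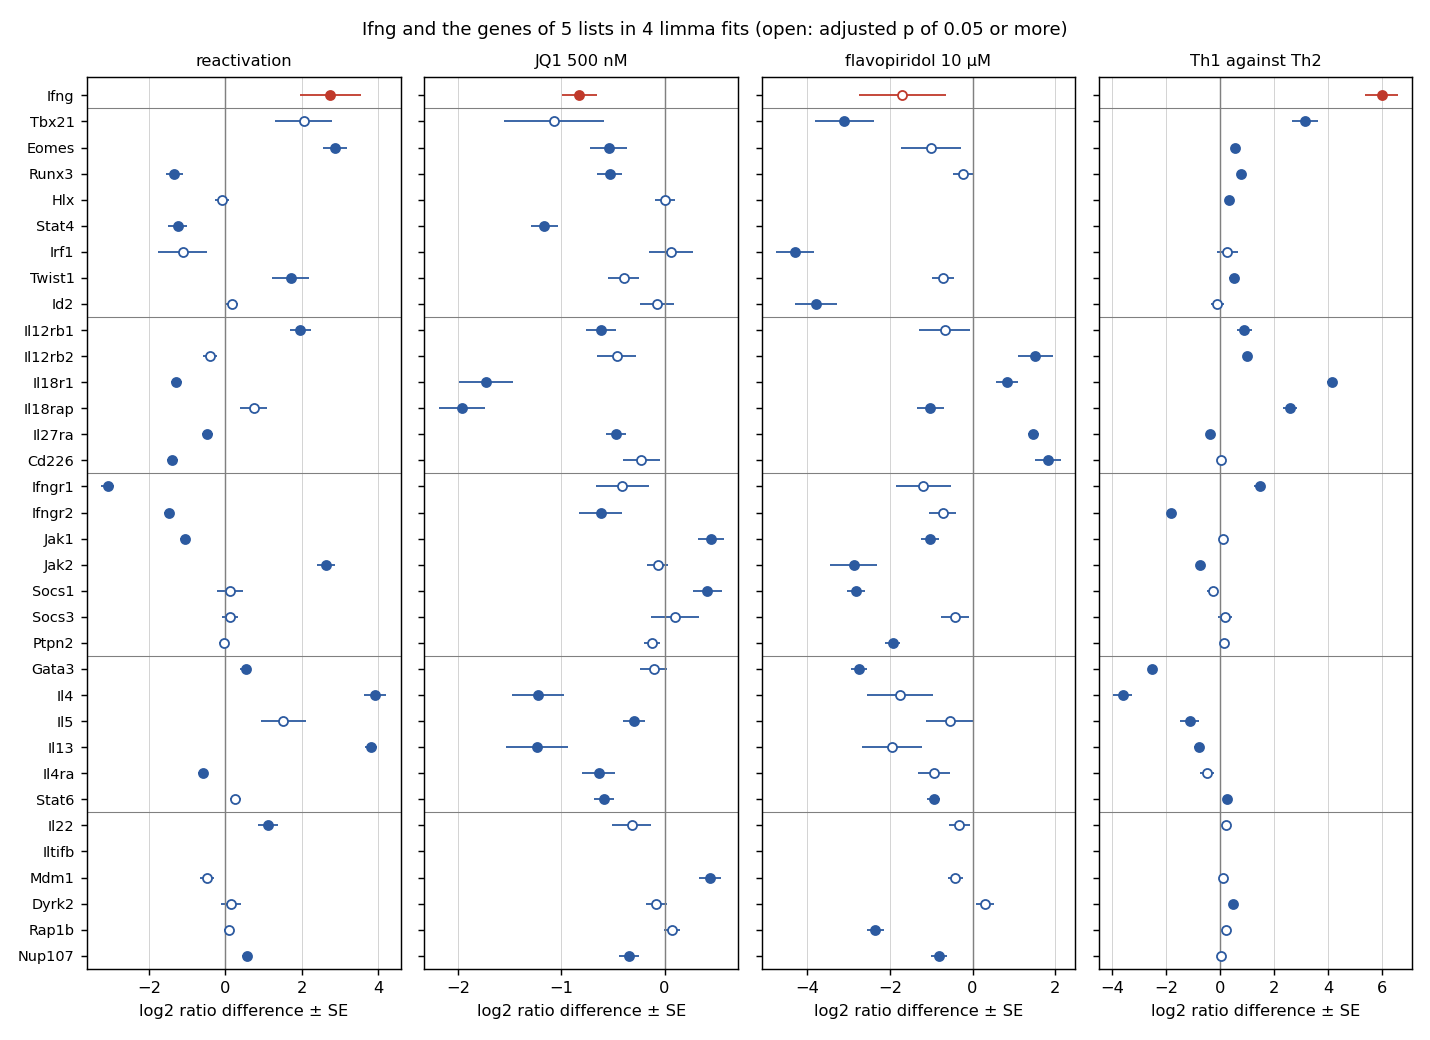
Log2 ratio differences (± SE) of Ifng and the genes of 5 lists in 4 limma fits, Th1 against Th2, reactivation, 500 nM JQ1 and 10 µM Flavopiridol. Filled points have an adjusted p below 0.05. Ifng stands highest between Th1 and Th2 (5.98), and Il18r1 (4.14) and Tbx21 (3.14) follow.

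The genes whose Cy3 levels ran most like Ifng over the 24 arrays were Sytl3 (Pearson r = 0.968), Fes (0.936), Wdr1 (0.935), Gabarapl1 (0.933), Casp4 (0.931), Furin (0.919), Ube2f (0.918) and H2-Q8 (0.904), of 12659 genes with a median r of −0.01. In the ratio they were Wdr1 (0.949), Tbkbp1 (0.946), Gabarapl1 (0.945), Ube2f (0.942), Gbp2 (0.941), Sytl3, Fes and Casp4 (0.931 each). These points share a reference and split by cell type, and within Th1 arrays alone the ratio of Gbp2 had r = −0.30. Fes, a tyrosine kinase gene, also had a Cy5 range of 4.62, beside 5.30 for Ifng.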

How the data were processed

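RNA was compared on dual-colour Agilent mouse arrays, 24 conditions with 1 array each. Per the file headers, the deposited median intensities of spots and local background came from Agilent Feature Extraction 10.7.1.1 with a grid of build mm9. The same deposited files hold the software's log10 ratio of its processed signals, used as an alternative. A log2 table of 34710 probes was deposited too, and how the authors normalized it is not given in the sources used here. For Ifng it followed Cy3 (r 0.998, SD of the difference 0.38) more closely than the ratio (SD 1.73). Groups came from the labels.

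Background was corrected with normexp (offset 50) and arrays were normalized by loess, with Aquantile for single channels, in limma 3.58.1 under R 4.3.3. Control and outlier-flagged spots were left out. Spots of a probe were averaged and the brightest probe stood for a gene. A gene entered a fit if Cy3 was well above background on at least 3 of its arrays. Matched conditions were fixed blocks, and genes were called at a Benjamini-Hochberg adjusted p below 0.05. The fits were tested on simulated data. Bounds used, per array, the higher of the lowest signal well above background and the dim probe's own. The text names Ifng, 5 gene lists, markers, and the 8 genes most like Ifng among those above background on at least 6 arrays. A further gene considered for the lists is not reported here. The members and lists were chosen with earlier results of these data known. Promoter sequence is from RefSeq. The number of arrays limits precision.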

Additional observations from a re-analysis of the deposited data

Results flagged for a closer look

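The effect of 10 µM Flavopiridol on the Cy3 level of Ifng differed between reactivated and unstimulated cells by −5.52 ± 1.18 on the log2 scale (limma, adjusted p = 0.0254). It was picked out because the difference between the states was itself tested and passed. In Th1 cells the reactivated array with 10 µM was lower than DMSO by 3.45 and the unstimulated one was higher by 2.03, a direction that rested on the scaling (in the ratio 1.00 with loess and −0.17 with spike-in centring, and 0.68 in Cy3 scaled to the spike-ins). In the ratio the same difference was −3.63 and did not pass (adjusted p = 0.215). Without 1 array at a time the Cy3 value was called in 5 of 12 fits (adjusted p up to 0.128), and Ifng was not well above background on any Th2 Flavopiridol array.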

How the results depend on the processing

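No analysis was paired by replicate number, because each condition had 1 array and the labels carry no replicate numbers, and matched conditions served as blocks instead. Of 169 alternatives over 12 comparisons, 142 kept the direction and the side of the threshold, 6 lost the call, 9 gained it and 12 turned the direction, of which 2 were called. Of 300 fits without 1 array, 271 kept both, 7 lost the call, 3 gained it and 19 turned the direction, none of them called. The causes were not tested. The scaling to spike-ins on Cy3, and Cy3 alone without 1 array, were chosen after seeing the data.

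Th1 against Th2 was called under all 13 alternatives, from 5.06 to 10.88. Reactivation lost the call in the ratio with software processed signals (1.99), no filter (2.75) and no block (2.75). JQ1 at 500 nM lost it with software processed signals (−0.39), no block (−0.82) and without Th2 arrays (−0.65). JQ1 at 50 nM gained it when only 8 arrays were fitted (−0.30). Flavopiridol gained it with spike-in centring (−2.24 at 10 µM, −2.16 at 1 µM) and with Cy3 scaled to spike-ins (−5.42 and −5.14). The 10 µM effect turned without Th2 arrays (0.18).

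Flavopiridol against JQ1 gained the call with Cy3 scaled to spike-ins (−3.17) and turned without Th2 arrays (0.82). The difference of the Flavopiridol effect between states gained it with Cy3 alone (−5.52), the deposited table (−5.50) and slide as a random block (−3.63). That of the JQ1 effect (0.05) turned with Cy3 alone (−0.074), median centring (−0.30), spike-in centring (−1.13), loess with a spike-in shift (−1.14), the deposited table (−0.036) and Cy3 scaled to spike-ins (−0.53). The JQ1 difference between cell types turned with Cy3 alone (−0.26) and the deposited table (−0.24), and the lineage difference by state with Cy3 alone (0.58) and the deposited table (0.36). Without Th2 arrays the differences by state could not be fitted, since no residual degrees of freedom were left.

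Without 1 array at a time, values ranged in the ratio from 1.35 to 3.50 for reactivation, −2.52 to −0.20 for Flavopiridol at 10 µM, −2.59 to −0.27 at 1 µM, −1.01 to −0.66 for JQ1 at 500 nM, −0.43 to −0.17 at 50 nM, −1.87 to 0.49 for Flavopiridol against JQ1, −6.42 to −0.84 for Flavopiridol by state, −0.47 to 0.57 for JQ1 by state, 1.01 to 6.48 for Flavopiridol by cell type, −0.092 to 0.80 for JQ1 by cell type, 5.72 to 6.38 for Th1 against Th2, and −2.89 to −1.46 for the latter by state. In Cy3, in the same order, they ranged from 5.24 to 5.42, −3.36 to −0.73, −3.40 to −0.77, −1.54 to −1.08, −0.54 to −0.29, −2.40 to 0.43, −6.97 to −4.08, −0.77 to 0.62, −0.012 to 5.54, −0.81 to 0.29, 8.19 to 8.65 and 0.07 to 1.104. Flavopiridol at either dose was called in Cy3 only without the unstimulated Th1 DMSO array.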
